A study of Mus musculus with 8 samples.

Results

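Intronic circular RNAs, typed ciRNA in the deposited circle table, were described as a class in mouse heart. They were all rows of the table with that type, 1326 of 27391 circles (4.84%), and they held 2899 of 254236 back-spliced reads (1.14%). The remaining 26065 circles were typed circRNA and are called exonic circles here. The samples were hearts of male wild-type (WT) mice: 4 had sham surgery, and 4 had transverse aortic constriction (TAC), in which the aorta is narrowed so that the left ventricle works against a higher pressure. All hearts were collected 8 weeks after surgery, and each gave 1 library. Circular RNA was taken from whole heart tissue with an extraction kit, while the molecule is labelled total RNA. In bulk tissue of this kind, fewer cells of a type and less RNA per cell cannot be told apart. Replicate numbers follow the order of the accessions and pair no mice between groups.

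When an intron is cut out of a transcript, its first base is tied to the branch point, an adenosine a short way upstream of the 3′ splice site, and the result is a lariat. The debranching enzyme Dbr1 normally opens the lariat, and the intron is then degraded. A lariat that escapes debranching can lose the tail behind its branch point and remain as a circle that runs from the 5′ splice site to the branch point. Such circles have been described mostly in the nucleus, where some act on transcription of their own host gene. A back-spliced read of a ciRNA is one that joins the 3′ end of this circle to the 5′ splice site.

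The first bases of the circles were those of a 5′ splice site. Bases could be read for ciRNA circles that a GENCODE transcript of the same build covers in 1 exon, such as a transcript that retains the intron. Whole sequences were read for 170 of the 1326 circles (12.8%), first bases for 288 and last bases for 264. The circle began with GT in 283 of the 288 and with GC in 3, and GTAAGT (42 circles) and GTGAGT (41 circles) were the most frequent first 6 bases. Since 1317 of the 1326 circles began at an annotated 5′ splice site, these bases follow from the annotation and are not a separate observation. The circles printed here were the 4 with the most reads in each of the 2 end classes described below, among those covered by a noncoding transcript. Beginnings are shown for 3 of them, with the first 6 bases, the 5′ splice site, in capitals.
Zfp68 beginning: GTAAGTgcacataccaaaaa
Slc25a3 beginning: GTGAGGtcgcaccctgccct
Srpk1 beginning: GTGAGTcccgtttgccagct

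Circles that ended 0 to 10 nt before the 3′ splice site are shown by their last 30 bases in lower case, and any bases of the intron left out of the circle follow in capitals. Zfp68 (a zinc finger gene, chr5:138616566-138617054, minus strand, 489 nt, 45 reads) and Hykk (hydroxylysine kinase, chr9:54917859-54918246, plus strand, 388 nt, 4 reads) left out none. Slc25a3 (the mitochondrial phosphate carrier, chr10:91122338-91123557, minus strand, 1220 nt, 9 reads) left out 6 bases, and Bhlhe41 (a transcriptional repressor, chr6:145864693-145864996, minus strand, 304 nt, 4 reads) left out 9.
Zfp68 end: tccctaggctcagtctcctctactctggag
Hykk end: catgtttcaatgtgtgtccttttttttcag
Slc25a3 end: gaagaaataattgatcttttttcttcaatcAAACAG
Bhlhe41 end: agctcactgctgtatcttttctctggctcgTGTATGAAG

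Circles that ended 18 to 45 nt before the 3′ splice site are shown the same way. They were Srpk1 (a kinase of splicing factors, chr17:28591327-28592217, minus strand, 891 nt, 3 reads, 33 bases left out), Apeh (a peptidase, chr9:108087287-108087722, minus strand, 436 nt, 2 reads, 22 left out), Rps24 (a ribosomal protein, chr14:24493494-24494012, plus strand, 519 nt, 2 reads, 39 left out) and Osbpl7 (a lipid-binding protein, chr11:97056348-97056509, plus strand, 162 nt, 2 reads, 18 left out).
Srpk1 end: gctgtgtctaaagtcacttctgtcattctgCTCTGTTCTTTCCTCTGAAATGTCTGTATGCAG
Apeh end: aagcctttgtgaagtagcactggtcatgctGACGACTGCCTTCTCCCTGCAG
Rps24 end: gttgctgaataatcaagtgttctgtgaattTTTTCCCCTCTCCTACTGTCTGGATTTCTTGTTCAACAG
Osbpl7 end: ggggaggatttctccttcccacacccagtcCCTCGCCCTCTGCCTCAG

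Among the 92 circles of the 18 to 45 nt class with a readable end, the last base was T in 32, A in 26, C in 20 and G in 14. The base 2 places before the last was T in 51 of the 92 (55.4%), while T made up 29.8% of the 40 bases before the last one over the 48 of these circles read whole. At the same place the 0 to 10 nt class had T in 32 of 68 (47.1%), against 37.4% before it in 41 circles. Among the 68 circles of the 0 to 10 nt class, the last base was G in 28 (41.2%), against 17.3% G over the 40 bases before it. A circle that ends at 0 nt ends on the last base of its intron, which is G in Zfp68 and Hykk above. Such circles are in this class, so part of its G share follows from how the class was set. In the 18 to 45 nt class A made up 28.3% of last bases and 23.5% of the bases before. These are counts of bases in the circles that transcripts happen to cover, with no test.

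Libraries differed in depth and in structure. They held 1119 to 100142 back-spliced reads, and sham replicate 2 (3963 reads) and TAC replicate 2 (1119 reads) were under 5000. Sham replicate 4, the deepest library, stood apart: 10.2% of its ciRNA circles rested on 1 read, against 62.1 to 94.1% in the other 7 libraries, and the most frequent number of reads was 5 for a ciRNA and 8 for an exonic circle, where it was 1 in every other library. Circles with more than 10 reads there and none in the other 7 libraries included G3bp2 (16 reads), Hnrnpab (14 reads) and Nampt (13 reads). Reads pooled over libraries for introns and gene lists are given with and without it where it moved them by over 1.5 times or changed their order.

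ciRNA circles were scarcer than exonic circles. They had 2.19 reads per circle over all libraries against 9.64 for exonic circles, and 938 of them (70.7%) rested on 1 read against 45.2% of exonic circles. Without sham replicate 4 there were 1.65 reads per ciRNA circle and 6.15 per exonic circle. Within a library, the share of ciRNA circles with 1 read was higher than that of exonic circles by 20.1 ± 9.63 percentage points (mean and SD of 8 libraries) and in 8 of 8 libraries (exact sign-flip permutation test over libraries, two-sided, p = 0.00781, the same after Benjamini-Hochberg adjustment over 2 such tests). Reads per circle were lower by 2.91 ± 3.51 on average, also in 8 of 8 libraries (p = 0.00781 by the same exact permutation test), and by 1.69 without sham replicate 4. The smallest p this design allows is 0.00781.

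Most ciRNA circles were seen once. Of the 1326, 1186 (89.4%) occurred in 1 library, 85 in 2, 25 in 3, 18 in 4, 6 in 5, 5 in 6, 1 in 7 and none in all 8. Of the exonic circles, 60.3% occurred in 1 library, and 14.2% reached 4 or more libraries against 2.26% (30 circles) of the ciRNA circles. The difference was also there among circles with exactly 2 reads in the table. Of these, 19.4% of 191 ciRNA circles and 44.9% of 3923 exonic circles had them in 2 libraries. Without sham replicate 4 these shares were 20% and 47%, and the gap closed with more reads. There, 68.4% against 83.1% occurred in at least 2 libraries at 3 to 5 reads. At 6 to 10 reads it was 89.5% (of 19 ciRNA circles) against 98.5%, and at 11 to 20 reads 100% (of 7) against 99.8%. With all 8 libraries the shares at 11 to 20 reads were 46.7% and 87.5%. Of ciRNA circles with 1 read in a library, 13.9 to 31.6% were also seen in another library over the 7 libraries other than sham replicate 4, against 47.6 to 83.3% of such exonic circles. These recurrence shares are descriptions, since libraries share the circles they count.

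Some introns gave several circles. The 1326 circles shared 1076 5′ ends and had 1326 different 3′ ends, so that a 5′ end stands here for an intron. A 5′ end lay at an annotated 5′ splice site in 1317 circles (99.3%). Of the introns, 973 gave 1 circle, 103 gave 2 or more, and 18 gave 5 or more. These 18 introns held 165 circles and 816 reads, 28.1% of all ciRNA reads. Introns recurred across libraries about as often as circles: 956 of the 1076 (88.8%) occurred in 1 library, and 25 reached 4 or more. Where an intron gave several circles, their 3′ ends lay within a median range of 7 nt, and within 10 nt in 64 of the 103 introns.

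The circles were short. The span, the end minus the start as the table counts, had a median of 563.5 nt with quartiles of 386 and 844.75 nt, and 1047 circles (79.0%) spanned 200 to 1000 nt. Exonic circles had a median genomic span of 8413 nt, which includes their introns. The shortest ciRNA came from Snapc3, a subunit of the small nuclear RNA activating complex (48 nt, 1 read in TAC replicate 3), and the longest from Klf9, a zinc finger transcription factor (22395 nt, 1 read in TAC replicate 4). Circles longer than 2000 nt numbered 39.

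Introns with a ciRNA were of middle length. Within the 915 transcripts that the table lists for ciRNA circles, 1049 introns with a ciRNA had a median length of 692 nt (quartiles 458 and 1170 nt), and 15721 introns without one had a median of 1065 nt (quartiles 365 and 2472 nt). Of introns with a ciRNA, 67.9% were 200 to 1000 nt long, 1.14% were under 200 nt and 12.6% were over 2000 nt. The shares for the other introns of these transcripts were 32.0%, 16.1% and 30.7%. The last intron of the transcript made up 10.2% of introns with a ciRNA and 5.06% of the others, and the first intron 6.86% and 5.31%. Both distributions are shown in the plot of intron lengths. Introns are not replicates, so these shares carry no test.

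**Figure D1:**
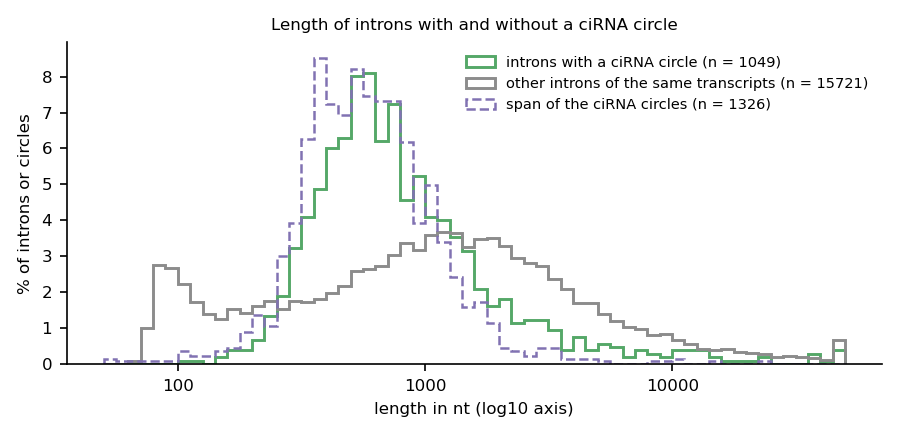
Length in nt (log10 axis) of 1049 introns with a ciRNA circle, of 15721 other introns of the same transcripts, and the span of the 1326 ciRNA circles, each as a percent of its own total per bin. Introns with a ciRNA gather between 200 and 1000 nt (67.9%), where 32.0% of the other introns lie.

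The 3′ ends gathered in 2 ranges of distance, with no empty distance at their borders. The distance from the end of the circle to the nearest annotated 3′ splice site of an intron with the same 5′ splice site was known for 1312 circles and had a median of 24 nt. Of these, 435 circles (33.2%) ended 0 to 10 nt before the 3′ splice site, with 88 circles at 2 nt and 69 at 0 nt, so that the circle was the whole intron or nearly so. A second group of 458 circles (34.9%) ended 18 to 45 nt before it, most often at 25 nt (29 circles), which is where branch points commonly lie. Of the rest, 78 ended at 11 to 17 nt, 134 at 46 to 100 nt and 207 at more than 100 nt. The median circle covered 96.3% of its intron. The listed transcript gave the same distance for 1108 of the 1268 circles it holds, so class sizes depend on the 3′ splice site taken.

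The shares of both end classes did not overlap between sham and TAC libraries, but the adjusted p missed 0.05. Of the distinct ciRNA circles of a library, those ending 18 to 45 nt before the 3′ splice site made up 20.4, 18.5, 20.6 and 15.6% in sham replicates 1 to 4, and 43.8, 41.2, 41.8 and 38.5% in TAC replicates 1 to 4. Every TAC library was above every sham library. The means were 18.8 ± 2.33% in sham and 41.3 ± 2.20% in TAC (SD, n = 4 each), a difference of 22.5 percentage points (exact permutation test, two-sided, p = 0.0286, the smallest that 4 against 4 allows). Adjusted over the 5 library-level comparisons the p was 0.0714. With the other comparisons as they were, the adjusted p could not be lower than this, whatever the size of the difference. Counting error alone was large in the shallowest library, where 7 of 17 circles gave a 95% Wilson interval of 21.6 to 64.0%.

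The class at the 3′ splice site went the other way. Circles ending 0 to 10 nt before it made up 41.1, 33.3, 42.2 and 45.1% in sham replicates 1 to 4 and 23.6, 17.6, 22.5 and 30.3% in TAC replicates 1 to 4. No TAC library reached the lowest sham library. The means were 40.4 ± 5.02% and 23.5 ± 5.20% (SD, n = 4 each), a difference of -16.9 percentage points (exact permutation test, two-sided, p = 0.0286, adjusted p = 0.0714). With the distance in the listed transcript the means were 34.4% in sham and 19.1% in TAC. Both classes are shares of 1 total, so they are not independent. Without sham replicate 4 the differences were -15.4 points (p = 0.0571 by the exact permutation test) and, for the 18 to 45 nt class, 21.5 points.

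**Figure D2:**
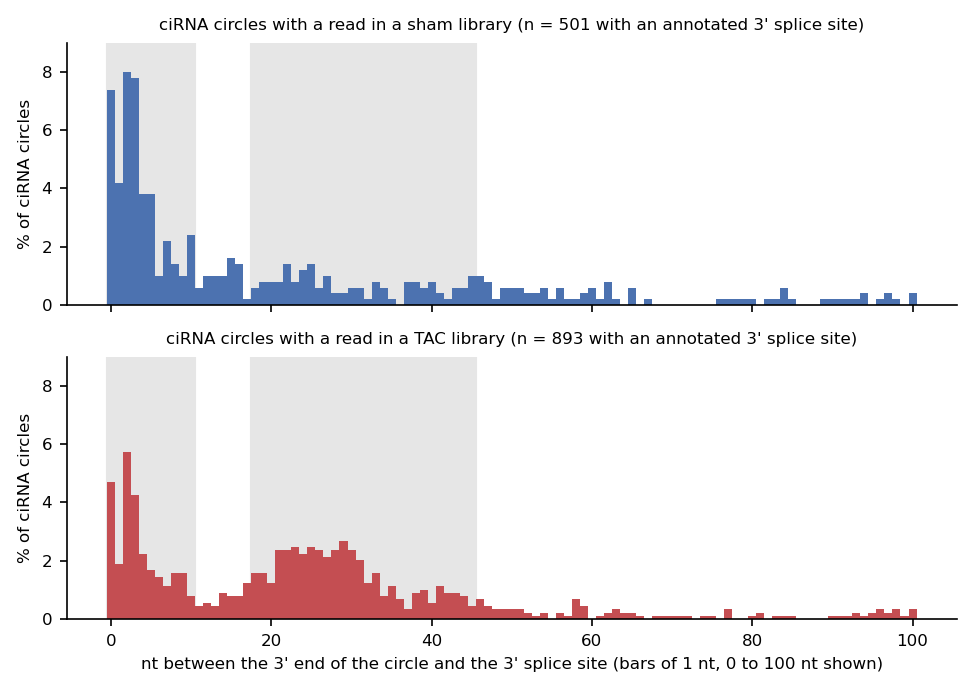
Percent of ciRNA circles (y axis) by the distance in nt from the 3′ end of the circle to the 3′ splice site (x axis, 0 to 100 nt), for 501 circles with a read in a sham library (upper panel) and 893 with a read in a TAC library (lower panel). Grey bands mark 0 to 10 nt and 18 to 45 nt; the second band holds 19.0% of the sham circles and 42.4% of the TAC circles.

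The number of reads behind a circle moved with the groups. Circles with 1 read made up 62.5, 70.4, 62.1 and 10.2% of the ciRNA circles in sham and 84.3, 94.1, 87.4 and 82.1% in TAC, and the groups did not overlap. Exonic circles did not overlap either, with 46.4, 55.1, 44.6 and 5.50% in sham and 61.3, 55.5, 63.8 and 60.6% in TAC. So this was not particular to ciRNA circles. Among ciRNA circles with 1 read in the library, the 18 to 45 nt class made up 15.4 to 24.2% in sham and 39.3 to 46.4% in TAC. The 0 to 10 nt class made up 36.8 to 53.8% and 12.5 to 31.5% of them. Such circles were few in sham replicate 2 (19), sham replicate 4 (13) and TAC replicate 2 (16). With circles of at least 2 reads in the table the difference was 13.8 points and the groups overlapped (p = 0.0571 by the exact permutation test). Without the introns that gave 5 or more circles it was 29.2 points. The classes were set on the distances of all libraries together, after the table had been seen. The circle caller and the read length, not given in the sources used here, could not be compared between groups.

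**Figure D3:**
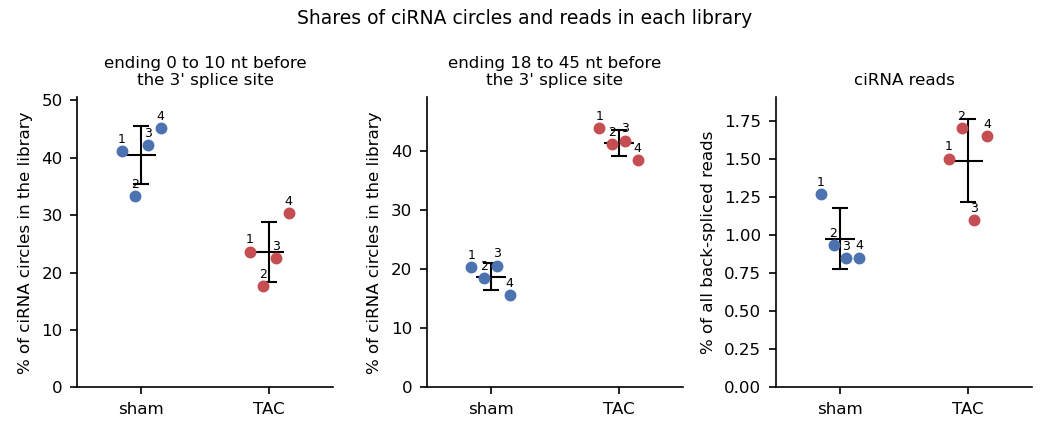
Percent of the distinct ciRNA circles of a library that end 0 to 10 nt (left) or 18 to 45 nt (middle) before the 3′ splice site, and percent of back-spliced reads in ciRNA circles (right). Points are libraries with their replicate number, bars are mean and SD of 4; the left and middle panels show no overlap between sham and TAC, the right panel shows TAC replicate 3 (1.10%) below sham replicate 1 (1.27%).

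The total ciRNA share did not separate the groups. ciRNA circles held 1.27, 0.934, 0.850 and 0.850% of back-spliced reads in sham and 1.5, 1.70, 1.10 and 1.65% in TAC. TAC was higher by 0.510 percentage points with 1 TAC library inside the sham range (exact permutation test, two-sided, p = 0.0571, adjusted p = 0.0714). At an equal depth of 1119 reads, ciRNA circles were 1.65, 1.21, 1.15 and 1.17% of distinct circles in sham and 1.94, 3.0, 1.42 and 2.07% in TAC (difference 0.814, p = 0.0571 by the same exact permutation test, adjusted p = 0.0714). Both differences turned to -0.0472 and -0.0618 when circles with 1 read in the table were left out. The span at the median ciRNA read was 489, 520, 495 and 423 nt in sham and 587, 357, 511 and 581 nt in TAC, a difference of 0.06 on the log2 scale (p = 0.800, exact permutation test) whose sign changed in several settings.

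The most abundant ciRNAs came from heart muscle genes, and several introns gave a cluster of circles. An intron of Mybpc3, cardiac myosin-binding protein C of the thick filament, had the most reads pooled over libraries, 203 in 19 circles (intron 9 of 34, chr2:91121956-91122342, plus strand, 384 nt). An intron of Myh6 came next by pooled reads (183), but it led by mean normalised reads (17.5 against 10.6 for Mybpc3) and by pooled reads without sham replicate 4 (164 against 121). The Mybpc3 ends formed separate groups: 4 circles with 134 reads ended 0 to 3 nt before the 3′ splice site, with 68 reads at 0 nt and 49 at 1 nt, and 12 circles ended 50 to 67 nt before it. The remaining 3 circles, of 385 to 387 nt and 8 reads, ran past that site, so their distance was taken to the next one. In sham replicates 1 and 4 the group at the splice site had 51 of 67 and 46 of 82 reads, and in TAC replicates 1 and 4 it had 9 of 14 and 20 of 26.

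Myh6, the alpha myosin heavy chain that drives contraction in the adult mouse heart, had 22 circles with 183 reads from intron 10 of 38 (chr14:54961361-54961728, minus strand, 458 nt). All ended 90 to 120 nt before the 3′ splice site, with most reads at 91 nt (30), 100 nt (22) and 92 nt (21). It was the only intron with ciRNA reads in all 8 libraries. Sorbs2, an adaptor protein of Z-discs and intercalated discs, had 14 circles with 161 reads from intron 6 of 23 (chr8:45745842-45746554, plus strand, 713 nt). Of these, 12 ended 39 to 54 nt before the 3′ splice site, led by 45 nt (42 reads), and 84 of the 161 reads were left without sham replicate 4. Agfg1, a protein with an Arf GTPase-activating domain and FG repeats, had 16 circles with 61 reads, of which 11 ended 43 to 58 nt and 5 ended 0 to 9 nt before a 3′ splice site. The plot of 3′ ends by intron shows these groups of neighbouring ends.

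**Figure D4:**
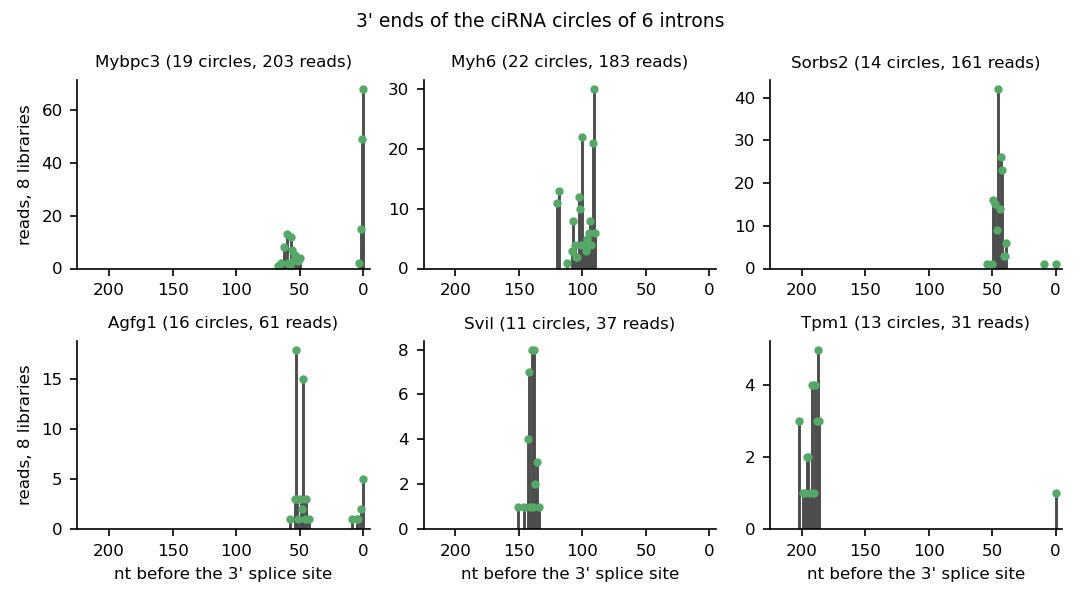
Reads in all 8 libraries (y axis) of each ciRNA circle against the distance in nt of its 3′ end from the 3′ splice site (x axis, running to the splice site at 0 on the right; ends past 220 nt not drawn) for 6 introns. Mybpc3 has ends at 0 to 3 nt and at 50 to 67 nt, and Myh6 only at 90 to 120 nt.

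Neighbouring ends are easiest to see in sequence. In the last intron of Tpm1, alpha tropomyosin of the thin filament (intron 7 of 7, longest circle of the cluster at chr9:67029929-67031028, minus strand), 12 circles with 30 reads ended 186 to 202 nt before the 3′ splice site. In Map4k4, a stress-activated kinase (intron 20 of 31, chr1:40007531-40008249, plus strand), 5 circles with 13 reads (7 without sham replicate 4) ended 81 to 98 nt before it. The stretches below end at the last base of the longest circle, and each capital is the last base of 1 circle.
Tpm1 ends: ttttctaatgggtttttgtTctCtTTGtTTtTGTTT
Map4k4 ends: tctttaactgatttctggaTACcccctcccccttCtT

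Levels are given as normalised reads, the deposited values, summed over the circles of an intron. The Myh6 intron had 8.34, 18.2, 2.48 and 3.70 in sham replicates 1 to 4 and 39.4, 5.77, 26.8 and 35 in TAC replicates 1 to 4. Of the TAC libraries, 3 were above all sham libraries, and the shallow TAC replicate 2, with 1 read, lay inside the sham range. The means were 8.17 ± 7.13 and 26.7 ± 14.9 (SD, n = 4 each). By limma the log2 fold change was 1.77 ± 1.22 (SE, on the log2(value + 0.195) scale, adjusted p = 0.835), in a fit that called 0.0268% of all features. By edgeR's quasi-likelihood test on recovered reads it was 1.92 ± 0.79 (SE, Benjamini-Hochberg adjusted p = 0.0801), and 12.9% of all features were called. Leaving out libraries moved the edgeR adjusted p between 0.00240 and 0.413.

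The other 6 Myh6 introns with a ciRNA gave reads in TAC libraries and none in sham libraries, and 4 of them held 5 reads in all. Over all 1076 introns with a ciRNA, 68 had reads in both groups, so reads in 1 group only were the common case. Intron 1 (718 nt) had 4, 0, 3 and 5 reads in TAC replicates 1 to 4, and intron 23 (234 nt) had 1, 1, 5 and 1. Intron 23 entered the limma fit only through its 4 TAC libraries, so its groups could not overlap, and its adjusted p was 0.835. The ends of introns 1 and 23 lay 22 to 32 nt and 30 nt before the 3′ splice site, in the class that had the larger share in TAC. Their circles are counted in that share, so this is not a separate observation. The leading Myh6 intron, with ends at 90 to 120 nt, was in neither class. Agfg1 had 1, 0, 0 and 0 of its 8, 0, 5 and 20 sham reads in the class at the 3′ splice site. In TAC it had 1, 0, 3 and 5 of 11, 0, 4 and 13 reads there, the opposite direction. Over all 7 of its introns Myh6 had 30 ciRNA circles, more than any other host gene, and its normalised reads were 8.17 ± 7.13 in sham and 33.0 ± 14.7 in TAC (SD, n = 4 each). Myh6 has a close paralogue in Myh7, and the assignment of reads that match both was not given in the sources used here.

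The Speg intron (intron 26 of 40, 513 nt), from a kinase of striated muscle, had 1.90, 13.6, 1.66 and 0 in sham and 5.20, 0, 10.3 and 8.90 in TAC. The high sham value was 3 reads of the shallow sham replicate 2. Its log2 fold change was 1.72 ± 0.89 by edgeR (adjusted p = 0.177, and 0.0280 to 0.609 with libraries left out) and 0.82 ± 1.6 by limma (adjusted p = 0.960). Mybpc3 had 25.4, 4.54, 7.45 and 15.95 in sham and 10.4, 0, 4.12 and 16.5 in TAC, and its groups overlapped (log2 fold change -0.95 ± 0.74, adjusted p = 0.418 by edgeR). Sorbs2 had 5.69, 9.09, 4.14 and 15 in sham and 15.6, 0, 10.3 and 19.7 in TAC (0.36 ± 0.71, adjusted p = 0.777 by edgeR, and -0.62 ± 1.42 by limma). Agfg1 had 3.03, 0, 4.14 and 3.89 in sham and 8.18, 0, 4.12 and 8.27 in TAC (0.57 ± 0.78, adjusted p = 0.677 by edgeR).

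**Figure D5:**
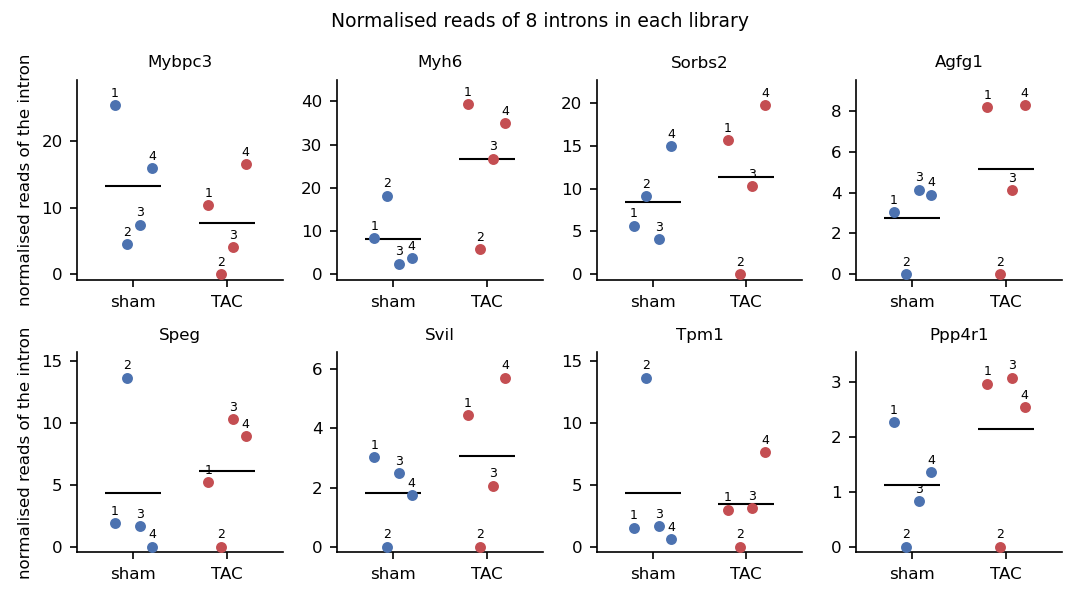
Normalised reads (y axis) of 8 introns seen in at least 6 libraries, summed over their ciRNA circles. Points are libraries with their replicate number and lines are group means of 4; TAC replicate 2 is at 0 in all panels but Myh6, where it is at 5.77.

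No single ciRNA circle passed the threshold of 0.05. By limma, 0 of 30 ciRNA circles in at least 4 libraries were called (2 at an unadjusted p under 0.05), where 1 of 3735 circles of either type was called (0.0268%). By edgeR 0 of 1 ciRNA circle tested was called, against 13.1% of 717 circles, and by DESeq2 none, against 0.084%. Summed per intron, limma called 0 of 25 introns (1 at an unadjusted p under 0.05) with a background of 0.0268%, and edgeR 0 of 5. Of the 25 introns, 15 had a positive log2 fold change, with a median of 0.16 beside 0.15 over all 3730 features tested.

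More introns passed without the shallow libraries. Without both libraries under 5000 reads, edgeR called 2 of 6 introns, Myh6 (log2 fold change 2.51 ± 0.51, adjusted p = 0.00240) and Speg (2.8 ± 0.93, adjusted p = 0.0325), while 30.3% of all features were called. In the same libraries limma called the same 2 of 24 introns (Myh6 adjusted p = 4.12e-07, Speg 0.00438) against 11.7% of all features, and 3 single circles, 2 of Myh6 and 1 of Speg, of 27 against 11.6%. Without TAC replicate 2 alone edgeR called Myh6 (2.30 ± 0.65, adjusted p = 0.0125), 1 of 6 introns against 19% of all features. Without sham replicate 2 alone it called Myh6 (2.24 ± 0.82, adjusted p = 0.0346) and Speg (2.55 ± 0.90, adjusted p = 0.0280), 2 of 6 introns against 22.2% of all features. With so few introns these counts are not set apart from the background.

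Among single circles, the largest mean belonged to Speg (511 nt, 26 reads in 5 libraries), with 3, 3, 0 and 0 reads in sham and 4, 0, 6 and 10 in TAC. The whole-intron circle of Mybpc3 (384 nt) had 30, 0, 4 and 20 reads in sham and 3, 0, 1 and 10 in TAC. The leading Sorbs2 circle (668 nt), seen in 7 libraries, had 2, 1, 2 and 17 reads in sham and 2, 0, 6 and 12 in TAC. The leading Myh6 circle (367 nt) had 1, 0, 0 and 7 reads in sham and 10, 1, 3 and 8 in TAC. On normalised reads this Myh6 circle was 0.44 ± 0.64 in sham and 5.35 ± 1.80 in TAC (SD, n = 4 each), every TAC library above every sham library, with a limma adjusted p of 0.834. In the shallow TAC replicate 2 it rested on 1 read, worth 5.77, without which the groups would overlap. It was 1 of the 22 circles of its intron, and for their sum the groups overlapped. Zfp68 gave 1 circle with 16, 0, 0 and 21 reads in sham and 4, 0, 1 and 3 in TAC, and Chd2, a chromatin remodeller, 1 circle with 1, 0, 0 and 20 reads in sham and 1, 0, 1 and 0 in TAC, so most of its reads came from sham replicate 4. Ppp4r1, a regulatory subunit of protein phosphatase 4, had a circle of 321 nt with 6, 0, 1 and 7 reads in sham and 4, 0, 2 and 4 in TAC. Rplp1, a ribosomal stalk protein, and Atp5b, the beta subunit of ATP synthase, were among the 12 largest means on 3 reads each in 1 shallow library.

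Hosts differed in their mix of ciRNA and exonic circles. The 1326 circles came from 932 host genes, of which 629 also had an exonic circle and 303 had none, and 753 hosts had 1 ciRNA. Over the 629 hosts with both types, the median intronic share of circle reads was 11.1%, and in 54 of them ciRNA reads outnumbered exonic reads. Without sham replicate 4 the median was 14.3% over 584 hosts. For Myh6 the share was 83.9% (208 ciRNA and 40 exonic reads), for Mybpc3 95.8% (203 and 9), and for Tpm1 all 37 reads were intronic. Ttn, the giant elastic protein of the sarcomere, had 21 ciRNA circles from 13 introns but 41 reads beside 1791 exonic reads (2.24%). Exonic Myh6 circles had 4.09 ± 3.68 normalised reads in sham and 3.14 ± 2.83 in TAC (SD, n = 4 each); the difference from its ciRNA reads was not tested. Sorbs2 had 541 exonic reads, with 15.3 ± 4.74 normalised in sham and 77.1 ± 52.5 in TAC, beside ciRNA means of 8.47 ± 4.80 and 11.8 ± 8.62.

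Host genes were also read by function, from lists of genes. Of 28 sarcomere and Z-disc genes with any circle, 14 had a ciRNA, and together they held 540 ciRNA reads, 18.6% of all ciRNA reads beside 1.43% of all exonic reads. Myh6 and Mybpc3 held 411 of these reads, and the other 12 hosts held 129 (4.45% of all ciRNA reads). The list's share of a library's ciRNA reads was 9.87 to 27.0% in sham and 19.3 to 21.6% in TAC. Of the 7 introns of this list tested by limma 5 had a positive log2 fold change and none was called. Calcium-handling and ion-channel genes showed the reverse order, with 6 of 22 circle hosts giving 16 ciRNA reads (0.55%) beside 9925 exonic reads (3.95%). Without sham replicate 4 they gave 14 ciRNA reads (0.68%) beside 6607 exonic reads (4.35%). Genes of the intercalated disc and costamere had 9 of 27 hosts and 172 reads, 161 of them from the Sorbs2 intron. RNA-binding and splicing factors had 17 of 42 hosts and 73 reads, chromatin regulators 9 of 45 and 41, extracellular matrix and TGF-beta genes 13 of 29 and 49, fatty acid and mitochondrial genes 11 of 32 and 27, and hypertrophic signalling genes 4 of 35 and 6. Without sham replicate 4 the reads were 31 for RNA-binding and splicing factors, 10 for chromatin regulators, 30 for extracellular matrix and TGF-beta genes, 3 for hypertrophic signalling genes and 95 for the intercalated disc and costamere. Over all genes, 932 of 6492 circle hosts (14.4%) had a ciRNA. With all 8 libraries no intron of these lists was called, where limma called 0.0268% of all features. Besides the 7 sarcomere introns, limma tested 1 intron each of the intercalated disc, RNA-binding and chromatin lists. It tested none of the calcium-handling, extracellular matrix, fatty acid and hypertrophic signalling lists, so it could call none there.

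In the extracellular matrix list, Col4a2, a chain of basement membrane collagen, had 2 ciRNA circles with 14 reads. Its leading circle (intron 17 of 47, 685 nt) had 0 reads in all sham libraries and 7, 0, 1 and 5 in TAC. Of all 1076 introns with a ciRNA, 68 had reads in both groups. Circles of the fibrillar collagen genes Col1a1 (10 reads) and Col1a2 (9 reads) were seen in sham replicate 4 and in no other library. Selenow, a selenoprotein with an intron 1 of 1778 nt, had 0, 0, 1 and 0 reads in sham and 3, 0, 3 and 4 in TAC. Of these Selenow was in enough libraries for the limma fit, and it was not called.

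Genes of lariat turnover and branch point recognition gave few reads. Of 24 such genes 20 had any circle and 7 of those (35%, beside 14.4% of all circle hosts) had a ciRNA. Together these had 9 ciRNA reads (0.310% of all) beside 586 exonic reads (0.233% of all), and 6 and 161 without sham replicate 4. Among them were Sf1, the branch point binding protein, Tfip11, which takes part in spliceosome disassembly, and U2af2, which binds the tract before the 3′ splice site, with 1 read each. Of 5 hosts known for ciRNAs in other settings, Ankrd52, Mcm5, Sirt7, Ins2 and Ins1, none had a ciRNA row here.

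Markers of cell types were read as hosts, since the table holds no linear reads. Of 14 cardiomyocyte markers 7 had a ciRNA (Actc1, Actn2, Mybpc3, Myh6, Ryr2, Tnnt2 and Ttn), with 483 reads that made up 8.55 to 21.5% of ciRNA reads in sham and 10.5 to 19.9% in TAC, while Myl2, Myl3, Tnni3 and Pln were at 0. Fibroblast markers had ciRNA reads from 3 of 10 genes, 22 in all, of which 19 were in sham replicate 4. Endothelial markers had 6 reads from 2 of 12 genes (Egfl7 and Kdr), all in TAC, with Pecam1 and Cdh5 at 0. Smooth muscle, Schwann cell and erythroid markers had 1 read each, and leukocyte and adipocyte markers had 0, including Ptprc, Cd68 and Adipoq. The part of cell makeup in the differences between groups was not tested.

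Some circles held another small RNA. A snoRNA lay within 6 ciRNA circles and a miRNA within 2. The circles with a snoRNA came from ribosomal protein genes Rpl7a (2 circles) and Rpl3, from Rack1, a ribosome-bound scaffold that holds Snord96a, from Taf1d, and from Snhg14 that holds Snord107, with 1 to 3 reads each. Of the introns with a ciRNA 0.667% held a snoRNA or scaRNA, against 0.286% of the other introns of these transcripts.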

How the data were processed

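The authors deposited 1 table with a value for each circle and library. As deposited by the authors, these signal values are back-spliced reads divided by 1 size factor per library; this was read from the values, whole multiples of 1 step per library (tolerance 0.001), and whole reads were recovered for all values. Per the submitters' processing notes, the build was mm10 and the tools included HISAT2, StringTie and DESeq2, with no version; the circle caller was not given in the sources used here. Positions count from 1. Introns, isoforms and bases came from GENCODE M21, whose build is the same; 1 gene name was stored as a date. limma 3.58.1 (trend) used log2(value + 0.195), where 0.195 is the lowest nonzero value, and circles detected in at least 4 libraries; edgeR 4.0.16 (TMM, minimum count 5, minimum total 15) and DESeq2 1.42.0 used the recovered reads. All circles were fitted and adjusted together. These fits were checked on simulated data in which only abundant circles changed, so that check says little about circles with few reads. Library values were compared by exact permutation tests. Intervals cover counting error only. Named circles were the 12 with the largest means, those in 6 or more libraries, the lowest edgeR p-values, hosts with most ciRNAs, extreme spans and up to 3 per gene list; Selenow and the single-library circles were chosen after seeing values, and so were the printed sequences, since a transcript covered 1 of those 12 circles. Members and lists were chosen with earlier results of these data known; intron sums and end classes were added after seeing the data. GC content was not computed, since 170 of 1326 circles had a sequence.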

Additional observations from a re-analysis of the deposited data

Results flagged for a closer look

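Dixon's test of the highest or lowest value in a group of 4 singled out several values; chance does so in about 1 in 20 groups. In sham replicate 4 a ciRNA circle had 6.70 reads on average and 10.2% of ciRNA circles had 1 read, far from the other 3 sham libraries. Sham replicate 1 had a share of distinct circles at equal depth of 1.65%, above the other sham libraries. Sham replicate 2 had 13.6 normalised reads for the Speg intron and 13.6 for the Tpm1 intron, each from 3 reads of a library of 3963. TAC replicate 2 had 0 reads for intron 1 of Myh6, where the other TAC libraries had 3 to 5.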

How the results depend on the processing

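Leaving out circles with 1 read in the table turned the difference in ciRNA share of reads to -0.0472, that in distinct circles at equal depth to -0.0618 and that in log2 span to -0.0181. Leaving out each library in turn moved them over 0.439 to 0.640, 0.517 to 1.04 (without TAC replicate 3, 1.04 with p = 0.0286 by the exact permutation test) and -0.02 to 0.22. Left-out libraries that turned the span difference were sham replicate 4 (-0.00497), TAC replicate 1 (-0.0215) and TAC replicate 4 (-0.0166). The 0 to 10 nt class differed by -19.3 to -15.0 points when each library was left out, missing 0.05 without sham replicate 4 (-15.4) or TAC replicate 2 (-15.0), by -13.5 with a window of 0 to 5 nt (p = 0.114, exact permutation test), by -12.8 with circles of at least 2 reads (p = 0.143, exact permutation test) and by -17.3 without both libraries under 5000 reads, where 3 against 3 allows no p below 0.100. The 18 to 45 nt class differed by 21.5 to 23.5 points when each library was left out, by 13.8 with circles of at least 2 reads and by 22.5 without both shallow libraries (p = 0.100, exact permutation test); in its 16 other settings direction and side of the unadjusted threshold held. Calls of ciRNA circles stayed at 0 in 25 settings and were 3 without both shallow libraries; calls of introns ran from 0 to 2, with 2 without both shallow libraries (limma and edgeR), 2 without sham replicate 2 and 1 without TAC replicate 2 (edgeR). The Sorbs2 intron turned to -0.62 on the log2 scale by limma. The ciRNA minus exonic difference in circles with 1 read ran from 17.4 to 22.3 points and in reads per circle from -3.21 to -1.69. The alternatives on end classes, intron sums and the comparison with exonic circles were chosen after seeing the data. The planned GC content comparison was not run, since a genome of this build was not used here. No paired analysis was possible because replicate numbers in accession order pair no mice. Depth limits most of this: 938 circles rest on 1 read, and a level cannot be compared at that depth. Causes were not tested.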
